A study of Homo sapiens with 6 samples.

Results

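Potassium channel genes were taken as every protein-coding row of the deposited count table whose symbol starts with KCN, which gave 78 of the 28862 genes listed. The cells were SH-SY5Y, an established line from a human neuroblastoma with a neuron-like, catecholaminergic character, and mRNA was sequenced in 6 libraries. The SMN1-labelled group holds 3 libraries from cells described as overexpressing SMN1, and the control group 3 libraries from cells given a control plasmid. No agent, time point or further allele is named for either group, and the labels do not tell if separate cultures were used. The p-values therefore describe the scatter among these 6 libraries alone, which can be technical.

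Potassium channels let potassium leave the cell down its gradient, which pulls the membrane towards rest and ends or prevents firing. A pore is built from alpha subunits: voltage-gated ones open on depolarisation, calcium- or sodium-activated ones open when those ions accumulate, inward rectifiers pass current near rest, and K2P channels, whose subunits hold a pair of pore domains, carry the background leak. Auxiliary subunits bind the pore and set its gating or trafficking. In neuroblastoma cells EAG-family and M-type currents are well known. SMN1 encodes SMN, a protein that assembles spliceosomal particles. The comparison asks how mRNA levels differ between cells given the SMN1 construct and cells given the control plasmid.

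Library totals ran from 31740870 to 40275498 reads in the SMN1-labelled group and from 30379242 to 31286361 in the control group. SMN1 itself was lower in the libraries labelled for its overexpression, at 16 ± 1.08 CPM against 20.02 ± 0.432 CPM in the control libraries (SD, n = 3 each, log2 fold change -0.32, edgeR adjusted p = 9.40e-05), and with the near-identical SMN2 summed in, the difference was -0.32 on the log2 scale (edgeR adjusted p = 2.23e-05), so the groups are named here only as labelled. Differences were broad: of 15829 genes tested, 28% were called higher and 28.2% lower in the SMN1-labelled group at an edgeR adjusted p of at most 0.05. Adrenergic markers were abundant apart from TH (0.0201 and 0.170 CPM in the SMN1-labelled and control groups), with DBH at 1731 and 1329 CPM. Among markers of other cells, the summed level of the 7 mesenchymal and fibroblast genes was 549 to 619 CPM in the SMN1-labelled libraries and 711 to 747 CPM in the control libraries, nearly all of it TWIST1, and 3 of the 5 tested were lower. That of the Schwann cell genes was 1.92 to 2.09 CPM in the SMN1-labelled and 3.36 to 4.75 CPM in the control libraries. Both tested Schwann cell genes were lower, and SOX10 was not among the genes listed in the counts. The 3 epithelial genes summed to 2.33 to 2.91 CPM in the SMN1-labelled and 3.93 to 5.07 CPM in the control libraries. Leukocyte genes summed to at most 0.0608 CPM in an SMN1-labelled and 0.0983 CPM in a control library. CD3E was not among the genes listed, and CD68 had 0 reads in the SMN1-labelled libraries. The part of these differences in the results was not tested, and in bulk RNA fewer cells of a type and less RNA per cell cannot be told apart.

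SH-SY5Y cells expressed a few potassium channel genes strongly and most of them weakly or hardly at all. Between genes, levels are compared in FPKM, which is scaled by gene length and library depth. Of the 78 genes, 22 reached 0.5 FPKM in at least 3 libraries, and 41 had enough reads for the count filter and entered the test. The leading gene was KCNH2, which encodes hERG, the channel that repolarises the heart and sets the resting potential of many tumour cells, at 21.31, 19.89 and 20.14 FPKM in the SMN1-labelled libraries and 22.16, 21.79 and 20.37 FPKM in the control libraries. Next stood KCNJ9, a G-protein-gated inward rectifier subunit of the GIRK family, at 11.34 to 13.97 FPKM over the 6 libraries. The leading 10 genes held 80.9% of the summed FPKM of all members, averaged over the libraries. KCNH2 alone made up 23.6% in the SMN1-labelled and 26.9% in the control libraries, and KCNH1 5.72% in the SMN1-labelled and 3.57% in the control libraries. KCNJ8, the pore of an ATP-sensitive channel, was at 4.29 to 6.93 FPKM. The ranges of KCNH2, KCNJ9 and KCNJ8 over the 6 libraries did not overlap one another, so this order held in every library. Below KCNJ8, neighbours in the order overlapped down to KCNQ1 (1.43 to 1.77 FPKM), which stood clear of KCNMB4 (0.82 to 1.39 FPKM). The remaining neighbours overlapped down to KCNH4 (0.39 to 0.55 FPKM).

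**Figure D1:**
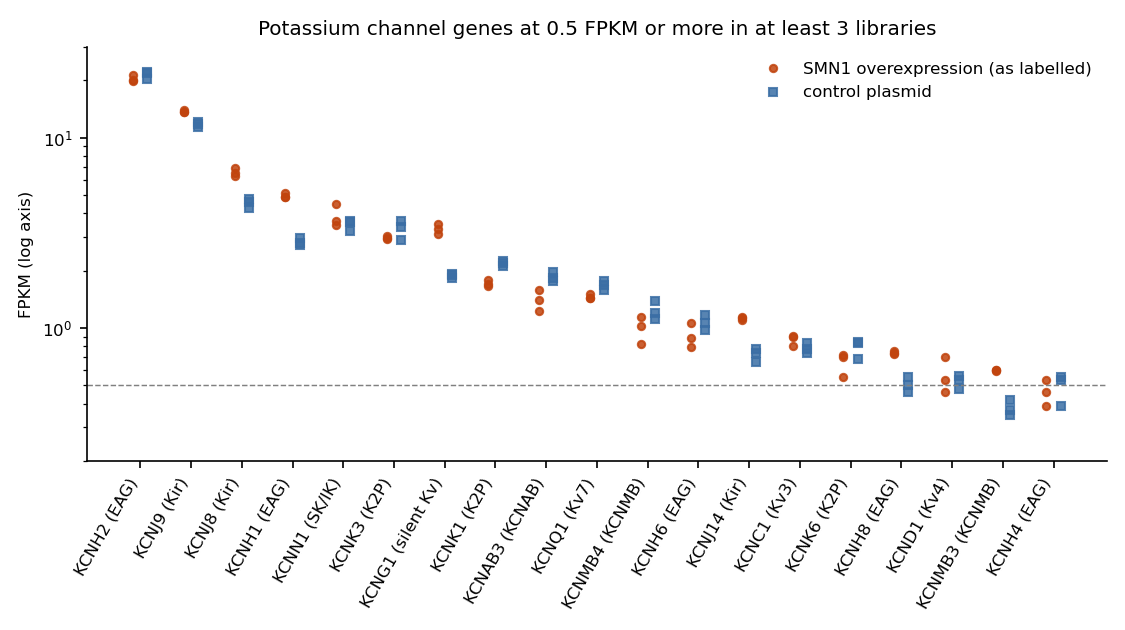
Levels of 19 of the 22 potassium channel genes at 0.5 FPKM or more (dashed line) in at least 3 libraries, ordered by mean, with 1 point per library on a log axis; circles are SMN1-labelled and squares control libraries. KCNH2 and KCNJ9 lie above 10 FPKM, and KCNH1 and KCNG1 show a gap between the groups.

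The filter removed 37 of the 78 genes, with 1 to 51 reads summed over all 6 libraries and a group mean of at most 0.434 CPM. The 3 reads that set the upper limit on an expected count where none is seen correspond to 0.0721 to 0.103 CPM, a limit that covers counting error only. Among those removed were all 4 KCNE genes and KCNRG, and 3 of the 4 Kv1 genes listed. Kv1 channels are the axonal brakes of many neurons, and their highest member here, KCNA3, was at 0.14, 0.12 and 0.02 FPKM in the SMN1-labelled libraries and 0.07, 0.12 and 0.09 FPKM in the control libraries. It passed the filter, and its log2 fold change of -0.04 had a 95% interval of -1.02 to 0.93 (edgeR adjusted p = 0.949). In KCNE, which encodes small single-pass partners of voltage-gated channels, the highest member by the mean over all 6 libraries was KCNE5, at 0.04 FPKM in the SMN1-labelled and 0.0533 FPKM in the control group. In the control group alone KCNE2 was higher, at 0.0667 FPKM. KCNRG, a soluble protein that hinders channel assembly, had at most 2 reads in a library. Of its 1625 nt of exon, 1086 nt are shared with TRIM13 on the same strand, so its reads are uncertain. TRIM13 was at 8.52 CPM in the SMN1-labelled and 6.79 CPM in the control group. Low reads of this size place a gene near the limit of detection and do not show its absence.

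Of the 41 tested genes, 11 were higher and 10 lower in the SMN1-labelled libraries and 20 did not pass, a called share of 51.2% against 56.2% over all genes tested. The share called higher was 26.8% and the share called lower 24.4%, each near the background of 28% and 28.2% over all genes, and below the 31.5% and 29.2% over protein-coding genes. The median log2 fold change was 0.004 over the tested potassium channel genes and 0.001 over all genes tested. Changes were moderate, from 1.10-fold to 1.66-fold for genes that rose and from 1.12-fold (1.115) to 1.92-fold for genes that fell. At 1.5-fold or more there were 2 higher (KCNG1 and KCNH1) and 2 lower (KCNT1 and KCNJ3), against 4.31% and 7.76% of all genes. Groups did not overlap in the higher direction for 11 of the 41 genes and in the lower direction for 9, against 30.4% and 30.2% over all genes, or 60.7% in either direction. On the deposited FPKM values, log2(FPKM + 0.1), limma called 9 members higher and 3 lower of 22 tested, and there 62.6% of all calls were higher, against 49.8% on counts. The FPKM of all genes summed to 279585 to 280450 in the SMN1-labelled libraries and 308575 to 313782 in the control libraries.

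**Figure D2:**
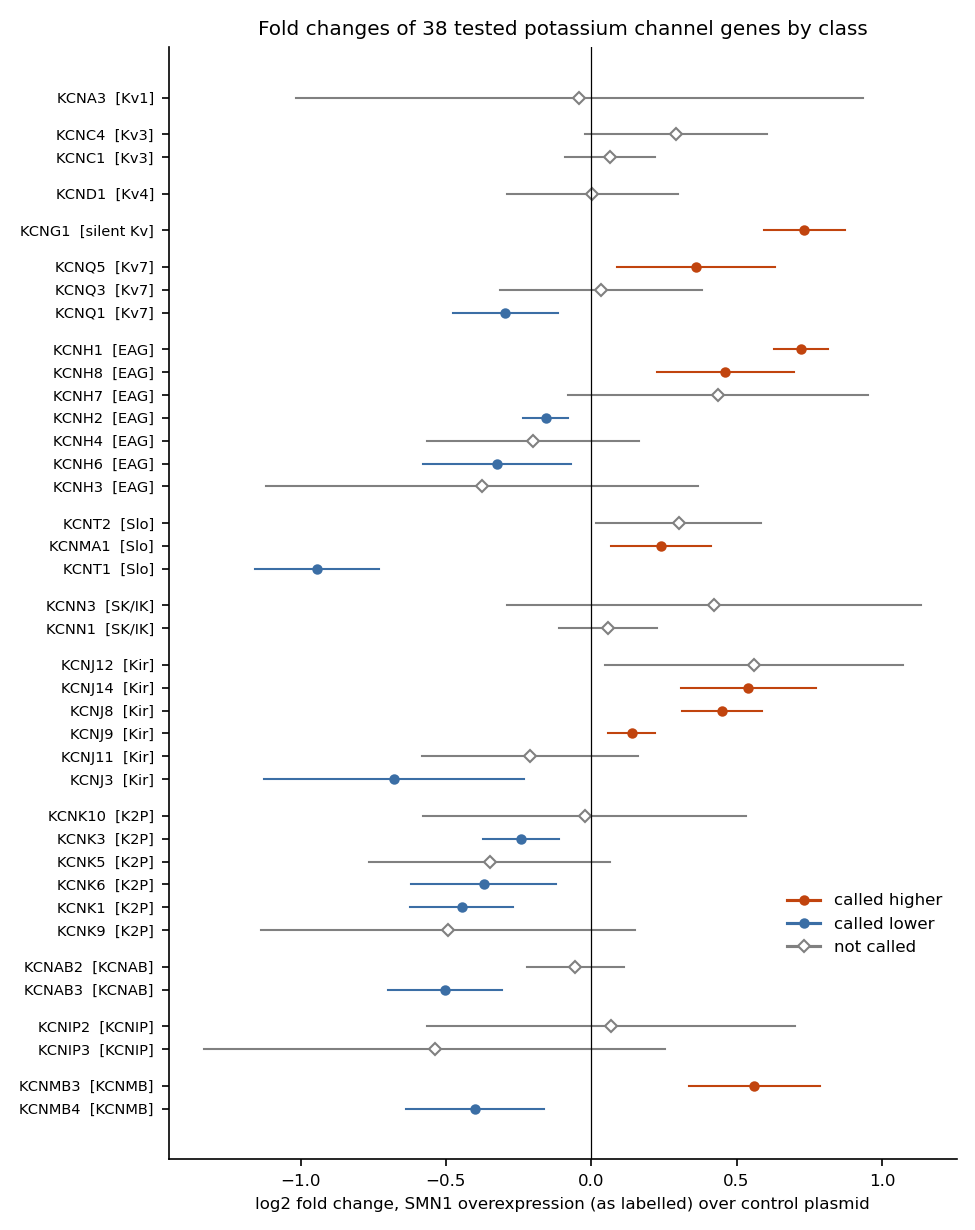
Log2 fold change of 38 of the 41 tested potassium channel genes, SMN1-labelled over control libraries, with its 95% interval from the edgeR fit, grouped by class; filled circles passed an adjusted p of 0.05 and open diamonds did not. Called genes run from KCNT1 at -0.94 to KCNG1 at 0.73, and the 3 called K2P genes all lie below 0.

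The EAG family, voltage-gated channels with 8 members listed and 7 tested, had 2 higher (KCNH1 and KCNH8), 2 lower (KCNH2 and KCNH6) and 3 not called (KCNH3, KCNH4 and KCNH7). These counts are near the share over all genes, 28% higher and 28.2% lower. KCNH1 encodes EAG, a channel of neurons that is also expressed in many tumours. Its level was 49.6, 51.7 and 48.8 CPM in the SMN1-labelled libraries and 29.7, 31.7 and 29.8 CPM in the control libraries. All SMN1-labelled libraries lay above all control libraries, by 1.65-fold (log2 fold change 0.72, SE 0.05, edgeR adjusted p = 3.54e-12). No other member had a smaller p. KCNH8, an ELK channel of the nervous system, was at 4.78, 4.54 and 4.62 CPM in the SMN1-labelled libraries and 3.63, 3.34 and 3.14 CPM in the control libraries. It rose 1.38-fold without overlap between the groups (edgeR adjusted p = 0.00138). Correction for gene length and GC content took its log2 fold change from 0.46 to 0.29 (edgeR adjusted p = 0.0395 after correction). KCNH2 was at 159, 147 and 149 CPM in the SMN1-labelled libraries and 174, 171 and 163 CPM in the control libraries. It was 1.12-fold lower (1.115), a difference of -0.16 on the log2 scale (edgeR adjusted p = 0.00112), but once gene length and GC content were corrected for, the log2 fold change was 0.01 (adjusted p = 0.819), and on log2(FPKM + 0.1) it was -0.07 (limma adjusted p = 0.195). KCNH6, a second ERG channel, was at 3.82, 3.41 and 4.59 CPM in the SMN1-labelled libraries and 5.36, 4.42 and 4.93 CPM in the control libraries, and the groups overlapped. Its call (log2 fold change -0.32, edgeR adjusted p = 0.0277) was lost without the first SMN1-labelled library (adjusted p = 0.0629), the second SMN1-labelled library (0.176), the first control library (0.135) or the third control library (0.0559). Summed over the family, reads were 214 ± 5.80 CPM in the SMN1-labelled group and 211 ± 6.35 CPM in the control group, with overlap. Within a library, the ratio of KCNH1 to KCNH2 in FPKM was 0.230, 0.258 and 0.242 in the SMN1-labelled group and 0.126, 0.137 and 0.135 in the control group, a ratio that does not depend on library scaling. This pair was chosen after its values were seen, so it has no test.

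KCNH1 lies on the minus strand of chromosome 1 in GRCh38, at 210676823 to 211134180 in GENCODE v29. Its annotated exons share 1582 nt with a non-coding gene on the same strand, which had 2.11 ± 0.142 CPM in the SMN1-labelled group and 1.33 ± 0.246 CPM in the control group (RP11-434N15.2, edgeR adjusted p = 0.00308), and the sources used here do not give how reads of the shared stretch were assigned. The bases from 250 to 51 before its RefSeq start are shown because KCNH1 had the smallest p among the members, at chr1:211134199-211134398 on the minus strand of GRCh38.p14, with a match to the GC box in capitals.
KCNH1: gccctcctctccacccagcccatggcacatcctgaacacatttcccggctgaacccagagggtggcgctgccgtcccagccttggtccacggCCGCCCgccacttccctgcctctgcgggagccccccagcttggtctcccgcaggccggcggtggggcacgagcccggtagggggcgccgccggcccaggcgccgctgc
The letters searched, on both strands, were the GC box GGGCGG, the palindromic E-box CACGTG, the cAMP response element TGACGTCA and the AP-1 site, in its form with any base in the centre. GGGCGG occurred in 35% of 35116 RefSeq windows of this kind and in 42.1% of the 95 windows that matched 58 members, and none of the other motifs was in the KCNH1 window. CACGTG occurred in 4.51% of all windows, TGACGTCA in 0.951% and the AP-1 site in 5.27%. The window holds 74.5% G and C, against a median of 57.5% over all windows and 63.5% over those of the members.

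Silent Kv subunits had 8 members listed, of which KCNG1 alone passed the filter, and it was higher. A silent subunit forms no channel alone and alters the Kv2 channels that it joins. KCNG1 was at 19.8, 18.4 and 17.3 CPM in the SMN1-labelled libraries and 11.3, 11.1 and 11.0 CPM in the control libraries. It rose 1.66-fold (log2 fold change 0.73, SE 0.07, edgeR adjusted p = 2.27e-09). The lowest SMN1-labelled library lay above the highest control library. It was called higher under every alternative run. AMIGO1, the adhesion protein that accompanies Kv2, was at 3.47 ± 0.502 CPM in the SMN1-labelled and 3.31 ± 0.146 CPM in the control group (edgeR adjusted p = 0.644). Of the endoplasmic reticulum proteins that anchor Kv2 at the cell surface, VAPB rose 1.16-fold (edgeR adjusted p = 2.51e-05) and VAPA fell 1.11-fold (edgeR adjusted p = 0.00502).

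Of the Kv3 channels, whose fast gating lets neurons fire at high rates, KCNC1 and KCNC4 did not pass. KCNC1 had 12.9 ± 0.924 CPM in the SMN1-labelled and 12.3 ± 0.879 CPM in the control group, a log2 fold change of 0.06 with a 95% interval of -0.09 to 0.22 (edgeR adjusted p = 0.494). KCNC4 was at 2.74 ± 0.253 and 2.23 ± 0.346 CPM in the SMN1-labelled and control groups (edgeR adjusted p = 0.104). For Kv4, the source of the transient A-type current, KCND1 was the only member tested, with 3.31, 2.88 and 4.35 CPM in the SMN1-labelled libraries inside and around the 3.20, 3.67 and 3.55 CPM of the control libraries. Its log2 fold change had a 95% interval of -0.29 to 0.30 (edgeR adjusted p = 0.985). The KCNIP genes, cytosolic calcium sensors of Kv4, were low: KCNIP2, the highest, had 0.492 ± 0.0806 CPM in the SMN1-labelled and 0.468 ± 0.0776 CPM in the control group (edgeR adjusted p = 0.870). In contrast DPP6, the membrane partner of Kv4, was abundant and rose 1.17-fold, with 48.7 ± 1.38 CPM in the SMN1-labelled and 41.5 ± 1.71 CPM in the control group (edgeR adjusted p = 0.000104).

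The Kv7 class carries the M-current and had 5 members listed and 4 tested. KCNQ3, an M-channel subunit, had 2.22 ± 0.351 CPM in the SMN1-labelled and 2.15 ± 0.326 CPM in the control group (edgeR adjusted p = 0.881). KCNQ1, which shares 121 nt of exon with KCNQ1OT1 on the opposite strand (edgeR adjusted p = 0.124) and is best known from heart and epithelia, was at 6.54, 6.54 and 6.78 CPM in the SMN1-labelled libraries and 8.49, 7.57 and 8.31 CPM in the control libraries. It was 1.23-fold lower without overlap (edgeR adjusted p = 0.00566), a call lost after the length and GC correction (log2 fold change -0.09, adjusted p = 0.417). KCNQ5, a further M-channel subunit, was at 3.79, 4.57 and 4.87 CPM in the SMN1-labelled libraries and 2.86, 3.90 and 3.55 CPM in the control libraries, with overlap. Its call (log2 fold change 0.36, edgeR adjusted p = 0.0226) was lost with DESeq2 (adjusted p = 0.0588), after the correction (0.238) and without SMN1-labelled library 2 (0.0714) or 3 (0.0877) or control library 1 (0.151). Of the calmodulin genes, whose product is a constant part of Kv7 and SK channels, CALM3 fell 1.07-fold (edgeR adjusted p = 0.0186) and CALM2 did not pass (edgeR adjusted p = 0.0593).

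**Figure D3:**
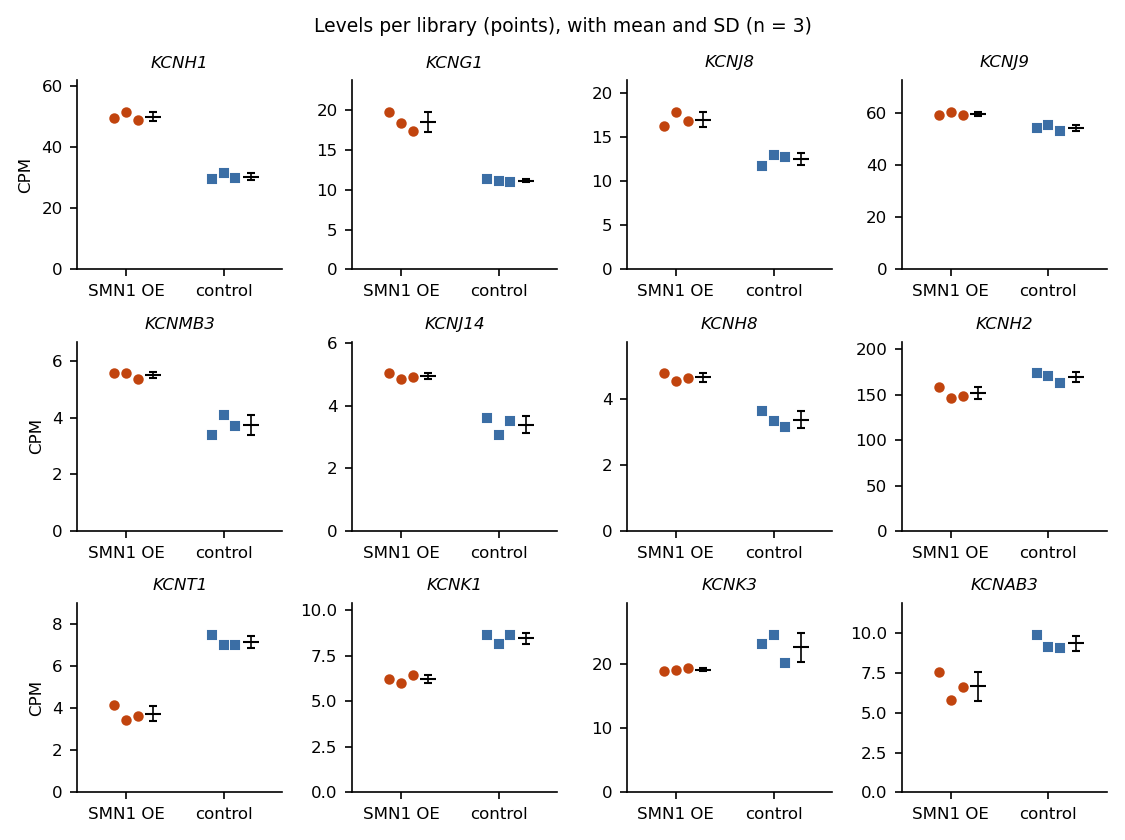
CPM of 12 potassium channel genes in each library, from 0, with SMN1-labelled libraries (circles) left of control libraries (squares) and the mean and SD (n = 3) beside them. KCNH1, KCNG1, KCNJ8, KCNJ9, KCNMB3, KCNJ14 and KCNH8 are higher and KCNH2, KCNT1, KCNK1, KCNK3 and KCNAB3 lower in the SMN1-labelled libraries. All 12 are from the called members without overlap between the groups.

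Among the channels gated by intracellular sodium or calcium, KCNT1 had the largest fall of the 41 tested members. KCNT1 encodes SLACK, a sodium-activated channel that is strongly expressed in sensory neurons. It was at 4.15, 3.44 and 3.65 CPM in the SMN1-labelled libraries and 7.52, 7.01 and 7 CPM in the control libraries. Every SMN1-labelled library lay well below every control library, by 1.92-fold (log2 fold change -0.94, SE 0.10, edgeR adjusted p = 4.45e-08). It was called lower under each alternative that tested it. KCNT2, its paralog, was at 3.11, 3.46 and 3.62 CPM in the SMN1-labelled and 2.36, 3.21 and 2.69 CPM in the control libraries and did not pass (log2 fold change 0.30, edgeR adjusted p = 0.0659). It passed without the first SMN1-labelled library (adjusted p = 0.0475) or the second control library (0.0209). In FPKM, KCNT2 was at 0.46 in the SMN1-labelled and 0.35 in the control group, and KCNT1 at 0.233 in the SMN1-labelled and 0.417 in the control group, so the order of the pair's means differed between the groups. In the control libraries their values overlapped, at 0.44, 0.41 and 0.40 FPKM for KCNT1 and 0.30, 0.41 and 0.34 FPKM for KCNT2. Both genes stayed below 0.5 FPKM in every library.

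In GRCh38, KCNT1 is a plus-strand gene of chromosome 9, at 135702185 to 135795508 in GENCODE v29. The bases from 250 to 51 before its RefSeq start are shown because it fell most among the tested members, at chr9:135701935-135702134 on the plus strand of GRCh38.p14. No letters are in capitals, since none of the motifs searched occurs there.
KCNT1: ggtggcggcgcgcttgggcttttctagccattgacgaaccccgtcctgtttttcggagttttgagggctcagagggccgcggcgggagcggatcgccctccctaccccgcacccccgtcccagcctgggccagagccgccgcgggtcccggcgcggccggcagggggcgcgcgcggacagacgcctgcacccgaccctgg
The window holds 74.0% G and C, close to the 74.5% of KCNH1. A relation between the GC content of these windows and the fold changes was not tested.

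KCNMA1, the pore of the large-conductance BK channel opened by calcium and voltage, was at 8.96, 9.62 and 9.98 CPM in the SMN1-labelled libraries and 8.09, 7.53 and 8.58 CPM in the control libraries. The groups did not overlap and the gene was called higher by 1.18-fold (edgeR adjusted p = 0.0165). This call was lost with DESeq2 (adjusted p = 0.054), after the length and GC correction (0.287), without the third SMN1-labelled library (0.0618) and without the second control library (0.0809). Its beta subunits, which tune calcium sensitivity and block by peptide toxins, went opposite ways. KCNMB3 was at 5.58, 5.58 and 5.38 CPM in the SMN1-labelled libraries and 3.40, 4.09 and 3.72 CPM in the control libraries, 1.48-fold higher without overlap (1.475, edgeR adjusted p = 0.000112). The length and GC correction took its log2 fold change from 0.56 to 0.32 (edgeR adjusted p = 0.0159 after correction). Its exons share 3403 nt with PIK3CA on the opposite strand, which also rose (edgeR adjusted p = 0.0365), and 864 nt with the pseudogene LRRFIP1P1 on the same strand, which rose too (edgeR adjusted p = 0.000537), so its reads are uncertain. KCNMB4, the neuronal beta subunit, was at 5.73, 5.10 and 4.11 CPM in the SMN1-labelled libraries and 5.93, 7.34 and 6.48 CPM in the control libraries. It fell 1.32-fold (edgeR adjusted p = 0.0048), with the nearest libraries of the groups close together, and was not called on log2(FPKM + 0.1) (limma adjusted p = 0.0691).

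Small-conductance calcium-activated channels, which shape the after-hyperpolarisation, showed no call among 2 tested. KCNN1 was at 19.9, 15.3 and 15.9 CPM in the SMN1-labelled libraries and 16.7, 14.9 and 17.3 CPM in the control libraries. The groups overlapped and its log2 fold change of 0.06 had a 95% interval of -0.11 to 0.23 (edgeR adjusted p = 0.570). With the length and GC correction it was 0.28 (adjusted p = 0.00404). KCNN3, at 0.474 ± 0.124 and 0.345 ± 0.0758 CPM in the SMN1-labelled and control groups, did not pass (edgeR adjusted p = 0.309).

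Inward rectifiers had 13 members listed, 6 tested, 3 higher and 1 lower, beside 28% higher and 28.2% lower over all genes. With 6 genes these counts carry no test. KCNJ8, whose channel links energy state to the membrane potential, was at 16.3, 17.9 and 16.8 CPM in the SMN1-labelled libraries and 11.7, 13 and 12.8 CPM in the control libraries, 1.36-fold higher without overlap (log2 fold change 0.45, SE 0.07, edgeR adjusted p = 3.94e-06). KCNJ11, the other ATP-sensitive pore, had 1.53 ± 0.184 CPM in the SMN1-labelled and 1.76 ± 0.235 CPM in the control group (edgeR adjusted p = 0.332). Their sulfonylurea receptor subunits were low. ABCC8 was at 0.516 ± 0.0727 CPM in the SMN1-labelled and 0.823 ± 0.224 CPM in the control group, and its call (log2 fold change -0.69, edgeR adjusted p = 0.0406) was lost with DESeq2 (adjusted p = 0.123), with no filter (0.06), after the length and GC correction (0.0712) and without SMN1-labelled library 1 (0.0539), 2 (0.161) or 3 (0.0605) or control library 1 (0.21) or 2 (0.0951). ABCC9 had 0.406 ± 0.158 CPM in the SMN1-labelled and 0.367 ± 0.0954 CPM in the control group and did not pass (edgeR adjusted p = 0.713).

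KCNJ9, the leading rectifier, was at 59.2, 60.4 and 59.1 CPM in the SMN1-labelled libraries and 54.1, 55.3 and 52.9 CPM in the control libraries. Its rise of 1.10-fold was small but larger than the spread within groups (log2 fold change 0.14, SE 0.04, edgeR adjusted p = 0.00418). KCNJ3, the GIRK subunit that others need for full current, was at 1.25, 1.11 and 0.913 CPM in the SMN1-labelled libraries and 1.30, 2.29 and 1.65 CPM in the control libraries. It fell 1.6-fold (log2 fold change -0.68, SE 0.22, edgeR adjusted p = 0.00986), a call that was lost without the second control library, where the log2 fold change was -0.43 (adjusted p = 0.129). KCNJ12, a strong rectifier whose near-identical copy KCNJ18 makes its reads uncertain, was at 1.08 ± 0.250 CPM in the SMN1-labelled and 0.739 ± 0.107 CPM in the control group and did not pass (edgeR adjusted p = 0.059). KCNJ5, a further GIRK subunit, had at most 10 reads in a library and was not tested. KCNJ14, a rectifier first known from motor neurons of the brainstem, was at 5.05, 4.86 and 4.93 CPM in the SMN1-labelled libraries and 3.6, 3.08 and 3.52 CPM in the control libraries. It rose 1.46-fold without overlap (1.455, edgeR adjusted p = 0.000258). Its exons share 350 nt with GRWD1 on the same strand, which was far more abundant at 94.7 ± 2.63 CPM in the SMN1-labelled and 93.3 ± 6.21 CPM in the control group and was not called (edgeR adjusted p = 0.709).

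The K2P leak channels had 12 members listed and 6 tested, of which 3 fell, none rose and 3 did not pass, beside 28.2% lower and 28% higher over all genes. With 6 genes this count carries no test. KCNK1, of the weakly rectifying TWIK group, was at 6.24, 6.01 and 6.42 CPM in the SMN1-labelled libraries and 8.66, 8.12 and 8.62 CPM in the control libraries, 1.36-fold lower without overlap (log2 fold change -0.45, SE 0.09, edgeR adjusted p = 0.000104). KCNK3, an acid-sensitive TASK channel and the highest of the class, was at 18.9, 19 and 19.3 CPM in the SMN1-labelled libraries and 23.0, 24.5 and 20.1 CPM in the control libraries. It was 1.18-fold lower (edgeR adjusted p = 0.00229), with the third control library close to the SMN1-labelled ones, and was not called on log2(FPKM + 0.1) (limma adjusted p = 0.142). KCNK6, also of the TWIK group, was at 4.57, 3.46 and 4.41 CPM in the SMN1-labelled libraries and 5.63, 4.65 and 5.69 CPM in the control libraries. Its call (log2 fold change -0.37, edgeR adjusted p = 0.0119) was lost without the second SMN1-labelled library (log2 fold change -0.24, adjusted p = 0.115), without the first control library (0.0566) or without the control library numbered 3 (0.0517), and on log2(FPKM + 0.1) (limma adjusted p = 0.135). The members not called were KCNK5, KCNK9 and KCNK10, with log2 fold changes of -0.35, -0.49 and -0.02. The median over the 6 tested was -0.36, against 0.001 over all genes, and the summed level was 32.8, 31.3 and 33.5 CPM in the SMN1-labelled libraries and 41.02, 41.6 and 38.0 CPM in the control libraries, without overlap.

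**Figure D4:**
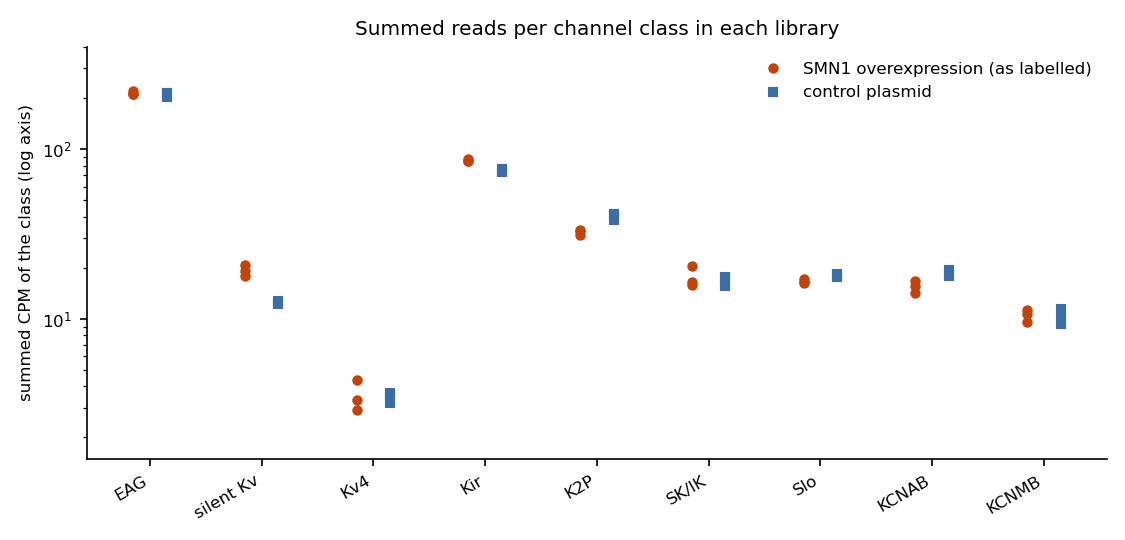
Summed CPM of 9 potassium channel classes in each library on a log axis, with SMN1-labelled libraries (circles) left of control libraries (squares). Sums for silent Kv and inward rectifiers (Kir) are higher and those for K2P, Slo and KCNAB lower in the SMN1-labelled libraries without overlap, and each sum is led by 1 or a few genes.

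Of the KCNAB genes, cytosolic beta subunits of Kv1 channels that resemble oxidoreductases, KCNAB3 was called and KCNAB2 was not. KCNAB3 was at 7.58, 5.79 and 6.63 CPM in the SMN1-labelled libraries and 9.92, 9.17 and 9.06 CPM in the control libraries, 1.42-fold lower without overlap (log2 fold change -0.50, SE 0.09, edgeR adjusted p = 8.50e-05). It shares 252 nt of exon with a gene on the same strand that also fell (RP11-1099M24.7, 3.08 ± 0.154 CPM in the SMN1-labelled and 5.004 ± 0.239 CPM in the control group, edgeR adjusted p = 1.34e-05). KCNAB2 had 8.60 ± 0.452 CPM in the SMN1-labelled and 8.91 ± 0.313 CPM in the control group, and its log2 fold change had a 95% interval of -0.22 to 0.11 (edgeR adjusted p = 0.585). Both beta subunit genes stood well above the Kv1 pore genes in FPKM, KCNAB3 at 1.40 ± 0.180 in the SMN1-labelled and 1.85 ± 0.108 in the control group.

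By class, the summed level of all members was 624 ± 13.9 CPM in the SMN1-labelled and 606 ± 8.21 CPM in the control group, a ratio of 1.03. The sums of the alpha subunits stood at 597 ± 12.3 CPM in the SMN1-labelled and 576 ± 8.11 CPM in the control group, and those of the auxiliary subunits at 27.3 ± 1.65 CPM in the SMN1-labelled and 29.96 ± 0.632 CPM in the control group. The inward rectifier sum was 85.9 ± 1.34 CPM in the SMN1-labelled and 74.9 ± 1.75 CPM in the control group, a ratio of 1.15. These sums carry no test, because they were formed over members described with results known.

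Beside the 28% higher and 28.2% lower over all genes, the lists of partner genes had the following counts. In the list of the sodium-potassium pump and cation-chloride cotransporters, 3 of 10 tested genes rose and 4 fell. Of 16 tested anchoring, trafficking and calmodulin genes 4 rose and 7 fell. Of 5 tested auxiliary genes without the KCN prefix 1 rose and 1 fell, and of 3 tested HCN genes, the related pacemaker channels, 2 fell. ADAM22, the receptor for LGI proteins near Kv1 channels, rose 1.30-fold (log2 fold change 0.37, edgeR adjusted p = 4.15e-08). After the length and GC correction its log2 fold change was smaller, at 0.12 (edgeR adjusted p = 0.00773). HCN2 fell 1.22-fold (edgeR adjusted p = 0.00295) and HCN3 1.25-fold (edgeR adjusted p = 0.00879). Neither HCN call held after the length and GC correction, where the log2 fold changes were 0.02 for HCN2 (adjusted p = 0.87) and -0.15 for HCN3 (adjusted p = 0.23), and HCN3 was also lost without the first control library (adjusted p = 0.0571).

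Gene length and GC content moved with the fold changes. Over the 41 tested members, Spearman's rho between log2 fold change and exonic length was 0.23, and between log2 fold change and GC content -0.31, against 0.34 and -0.43 across 15663 genes, which share their libraries and are no replicates. The members had a median exonic length of 5877 nt and a median GC content of 54.6%, against 4575 nt and 48.8% over all genes tested. After the correction 9 of the 11 higher and 7 of the 10 lower calls remained. KCNMA1, KCNQ5, KCNH2, KCNH6 and KCNQ1 were lost, and KCNC1, KCNJ12 and KCNN1 were among the 4 that passed as higher.

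**Figure D5:**
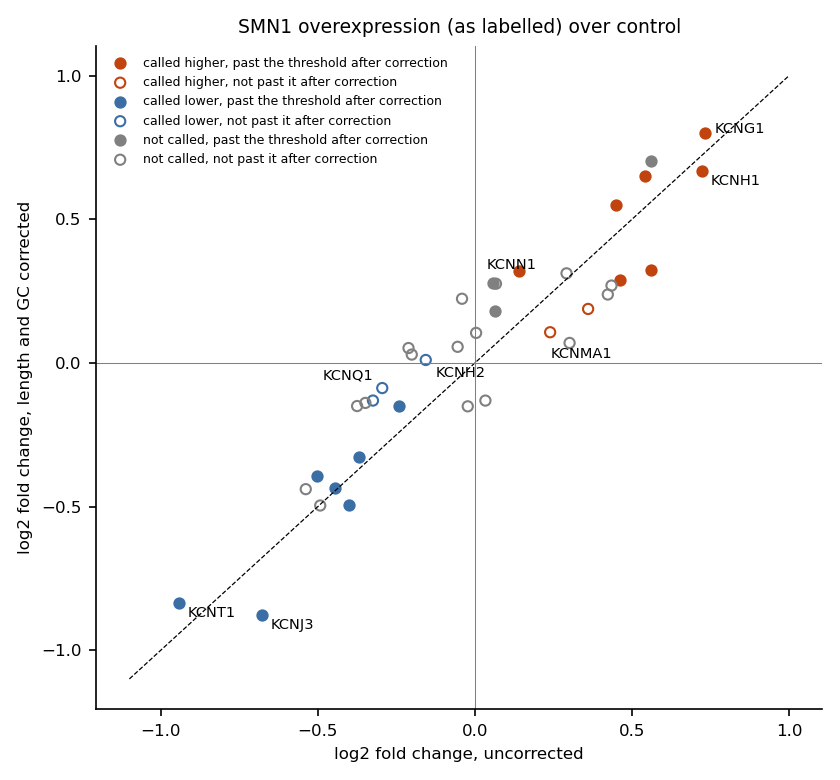
Log2 fold changes (SMN1-labelled over control) of 38 of the 41 tested genes before (horizontal) and after (vertical) correction for gene length and GC content; colour gives the uncorrected call and filled points passed an adjusted p of 0.05 after correction. KCNH1, KCNG1 and KCNT1 stay near the line of equality, and KCNH2 lies at 0.01 after correction.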

How the data were processed

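The authors deposited a table of read counts per gene and a table of FPKM. Per the labels' protocols, DNase-treated total RNA went into a stranded mRNA library kit and was sequenced in read pairs of 150 nt. HISAT2, DESeq2 and GRCh38 are named in the submitters' processing notes, while the sources used here do not give versions, the counting tool, its annotation or its strand setting. The FPKM values, deposited by the authors, are per gene length and depth and were used for levels between genes and for a limma alternative. The deposited counts were tested on the whole table with edgeR 4.0.16 (R 4.3.3): TMM scaling, default filterByExpr, a quasi-likelihood F test with group as the only term, two-sided, Benjamini-Hochberg adjustment over 15829 genes, called at an adjusted p of at most 0.05. Each SE was obtained by dividing the size of the log2 fold change by the root of its F statistic. CPM uses the TMM-scaled totals. Alternatives used DESeq2 1.42.0, limma 3.58.1, other scalings and filters, a length and GC correction and leaving out each library. Exon lengths, GC content and coordinates came from GENCODE v29 and promoters from RefSeq GRCh38.p14. The edgeR fit was tested on simulated data.

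The members and gene lists were chosen with earlier results of these data known. Values were written out for called members of at least 1 CPM without overlap, for the highest member of each class and for up to 2 called genes of each partner list. AMIGO1, ABCC9, VAPA, VAPB, CALM2, CALM3 and members named with overlapping groups were added after their values were seen. Libraries of a group differed by more than sampling noise, with a chi-square per degree of freedom of 2.51 to 4.36, so none was counted as a repeat of another. Results for some genes, which remain in the counts over all members and lists, are not reported here.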

Additional observations from a re-analysis of the deposited data

Results flagged for a closer look

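Among the KCN rows that are not protein-coding, KCNH1-IT1, a non-coding RNA annotated within an intron of KCNH1, gave a signal above the level in the control libraries. It had 36, 50 and 33 reads in the SMN1-labelled libraries and 19, 22 and 21 reads in the control libraries, or a mean of 1.09 (1.094) CPM in the SMN1-labelled group and 0.692 CPM in the control group. It was higher by 0.66 on the log2 scale (edgeR adjusted p = 0.0184), and this call was lost with DESeq2 (adjusted p = 0.0762), without the second SMN1-labelled library (0.0845) and without the first control library (0.0636). KCNH1 itself differed by 0.72 on the log2 scale in the same direction. Groups of 3 libraries were too small to test for a library far from the others.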

How the results depend on the processing

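Alternatives were counted for 24 of the named potassium channel genes, in 414 combinations of a gene with an alternative. Of these combinations, 352 kept direction and call, 43 lost the call, 4 gained one and 15 changed sign. Direction and call were kept under every alternative by 10 of the 24 genes. KCNC1, KCNC4 and KCNJ12 are outside the 24, and each passed as higher under an alternative. Requiring a 1.5-fold change left 2 members higher and 2 lower, and 683 and 1228 of all genes. On log2(FPKM + 0.1), log2(FPKM + 1) and unfiltered log2(FPKM + 1), limma called 3, 3 and 4 members lower and 2963, 2965 and 2883 of all genes lower. Leaving out 1 library gave 10 to 13 members higher and 8 to 12 lower, and 3965 to 4335 of all genes higher and 4049 to 4346 lower. KCNH2 and HCN2, both called lower before, were among the genes that changed sign. With the length and GC correction, without and with the replicate block, KCNA3 was at 0.22 and 0.18, KCNH2 at 0.0103 and 0.0105, and HCN2 at 0.0175 and 0.0183 (log2). KCND1 was at -0.0119 with upper-quartile factors, -0.022 with limma-voom and -0.0077 with a stricter filter. Leaving out 1 library gave KCNA3 from -0.19 to 0.37, KCND1 from -0.17 to 0.14 (0.143), KCNN1 from -0.0637 to 0.14 (0.1357) and KCNIP2 from -0.0591 to 0.16 (0.1634). The cause was not tested.

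The labels number the libraries 1 to 3 in both groups, but deviations of same-numbered libraries correlated at only 0.005, 0.013 and 0.003, so the numbers were not taken as pairs. A fit with the replicate block called 11 members higher and 10 lower, and 4326 and 4382 of all genes. Depth limits the 37 members removed by the filter, of which 18 had 10 or fewer reads over all libraries.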

Other observations

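Without the filter on low counts, edgeR also called 5 weakly expressed members, named here after their values were seen. KCNAB1, a Kv1 beta subunit, had 11, 16 and 7 reads in the SMN1-labelled libraries and 3, 2 and 5 in the control libraries (edgeR adjusted p = 0.0211). KCNS3, a silent Kv subunit, had 14, 7 and 10 reads in the SMN1-labelled libraries and 1, 6 and 3 in the control libraries (edgeR adjusted p = 0.0435). KCNS1 and KCNF1, both silent subunits, and the leak channel gene KCNK15 were lower. KCNS1 had 2, 4 and 6 reads in the SMN1-labelled libraries and 18, 13 and 8 in the control libraries (edgeR adjusted p = 0.000436). KCNF1 had 0, 10 and 0 reads in the SMN1-labelled libraries and 15, 6 and 12 in the control libraries, so its groups overlapped (edgeR adjusted p = 0.00123). KCNK15 had 5, 3 and 2 reads in the SMN1-labelled libraries and 8, 9 and 8 in the control libraries (edgeR adjusted p = 0.0286). These counts are a few reads per library, and none of the 5 passed the filter used for the comparison.

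Ratios between members were computed in FPKM within each library, on 4 pairs picked after their values were seen and so without a test. The ratio of the GIRK subunits KCNJ9 to KCNJ3 was 64.7 ± 11.0 in the SMN1-labelled and 38.5 (38.45) ± 10.6 in the control libraries. That of the ATP-sensitive pores KCNJ8 to KCNJ11 was 22.2 ± 3.61 in the SMN1-labelled and 14.04 ± 1.38 in the control libraries.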
